A study of Mus musculus with 17 samples.

Results

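Fezf2 and 6 self-antigen transcripts that have been linked to it, Ttr, Resp18, Fabp9, Calb1, Maoa and Nol4, were followed over 17 arrays of sorted mouse medullary thymic epithelial cells. These 7 genes were found by symbol in the platform annotation of the array, among 19752 genes that had a probe set with a single symbol. Of several probe sets of a gene, the one brightest on average was taken. That choice mattered only for Nol4, which had 3 probe sets, since the other 6 genes had 1 each. All 7 were among the 13842 genes bright enough to be tested, that is, above the 40th percentile of their array on at least 2 arrays.

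Medullary thymic epithelial cells transcribe genes of many other organs and so display self-antigens to developing T cells. Aire, a transcriptional regulator, drives a large share of that ectopic expression. Fezf2, a zinc-finger transcription factor best known from the developing forebrain, is needed for a further set of these transcripts in mice and has been placed downstream of the lymphotoxin beta receptor. The linked antigens belong to unrelated organs. Ttr encodes transthyretin, the thyroxine and retinol-binding protein carrier made by liver and choroid plexus, and Resp18 a protein of neuroendocrine secretory granules. Fabp9 encodes the fatty acid-binding protein of sperm, Calb1 the calcium-binding protein calbindin, and Maoa the monoamine oxidase that degrades serotonin and noradrenaline. Nol4, a nucleolar protein gene, is expressed mainly in brain and testis.

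All mice were C57BL/6 and carried Adig, a reporter in which Aire regulatory sequence drives Igrp, the protein encoded by G6pc2, together with GFP, the controls included. GFP thus marks use of the Aire promoter, also in cells without Aire. The sort took cells with high MHC class II and neither CD45 nor Ly51, and split them by GFP on a MoFlo instrument. Adults were 5 weeks old. Perinates were labelled as 3 days old, while the series text gives 0 to 3 days. The 6 groups were adult Aire-knockout (KO) GFP+ cells (3 arrays), adult wild-type (WT) GFP+ cells (3), adult WT GFP- cells (3), perinate KO GFP+ cells (3), perinate WT GFP+ cells (3) and perinate WT GFP- cells (2). All samples were labelled as of mixed sex, and the labels say neither which part of Aire was deleted nor whether replicates came from separate animals. The p-values therefore rest on the spread among these arrays, part of which may be technical.

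Values are the deposited linear intensities, and array medians lay between 144.5 and 157.1. The 40th percentile of an array lay between 96.16 and 112.1, and intensities below it are close to background, where a fold change is understated. It was 96.16 to 102.5 on KO arrays and 104.9 to 112.1 on WT arrays, without overlap. Genotype and this array-wide shift thus go together, and its part in the KO differences of dim genes was not tested. Of 14 defining markers of medullary epithelium, 13 were above that percentile on every array. The sort separated the reporter and its driver: Aire was 7.55-fold higher in GFP+ than in GFP- adult cells and 15.4-fold higher in perinate ones, and G6pc2 5.67-fold and 22.9-fold. Aire did not pass between genotypes, with geometric means of 4922 in KO against 5038 in WT GFP+ adult cells (log2 difference -0.03, adjusted p = 0.931) and 5196 against 4745 in perinate ones (0.13, adjusted p = 0.661). Which part of Aire its probes cover relative to the deletion is not given in the sources used here, so its level checks no genotype label, whereas the transcripts cited as Aire-induced, given further on, were lower in KO cells. Perinate KO arrays 2 and 3 stood apart in Y-linked Uty, at 19.24 and 16.14, against 168.9 to 366.2 on the other 15 arrays. Both samples were labelled as mixed sex like the rest. The same 2 arrays had the highest levels of Xist, which silences 1 X chromosome in females, at 5203 and 5167, against 2104 to 4509 elsewhere. Results of the 7 genes that rest on perinate KO cells are therefore given with and without them, and listed genes where that ends a call or moves a value by over 1.5 times, with 1 perinate KO array left and its spread taken from the other groups.

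The sequence just upstream of the start is shown for the 3 of 7 members that the RefSeq promoter table holds, which differ in pattern: Fezf2, bright on all arrays but those of perinate GFP- cells, Resp18, which was far higher in adults than in perinates, and Maoa, which was higher in KO cells. The windows are the 250 bases before the RefSeq start in build GRCm38.p6, read 5′ to 3′ on the gene's strand. Capitals mark matches to GGGNNNNNCC, a general form of NF-kB site, or to CCAAT, on either strand. Fezf2 lies at chr14:12345866-12346115 on the minus strand, Resp18 at chr1:75278416-75278665 on the minus strand and Maoa at chrX:16619448-16619697 on the plus strand.
Fezf2: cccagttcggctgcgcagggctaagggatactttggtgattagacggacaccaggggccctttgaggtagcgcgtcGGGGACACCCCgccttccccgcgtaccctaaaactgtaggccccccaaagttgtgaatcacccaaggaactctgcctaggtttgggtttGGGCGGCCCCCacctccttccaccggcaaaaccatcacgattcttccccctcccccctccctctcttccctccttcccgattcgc
Resp18: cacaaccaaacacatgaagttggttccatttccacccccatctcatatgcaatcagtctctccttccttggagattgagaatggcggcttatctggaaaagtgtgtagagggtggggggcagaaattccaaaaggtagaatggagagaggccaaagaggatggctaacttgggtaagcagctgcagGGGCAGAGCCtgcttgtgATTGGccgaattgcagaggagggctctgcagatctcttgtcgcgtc
Maoa: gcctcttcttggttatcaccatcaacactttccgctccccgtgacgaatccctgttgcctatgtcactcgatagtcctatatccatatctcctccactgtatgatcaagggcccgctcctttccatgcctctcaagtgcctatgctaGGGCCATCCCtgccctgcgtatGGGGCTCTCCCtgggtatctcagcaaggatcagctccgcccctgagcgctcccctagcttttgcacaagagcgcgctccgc
The annotated Fezf2 gene extends 938 bases upstream of this start, so its window lies inside the span of a longer transcript, whereas the Resp18 and Maoa windows lie outside their annotated genes. Counting both strands and overlapping positions, GGGNNNNNCC matched 7 times in the Fezf2 window, 1 time in that of Resp18 and 5 times in that of Maoa. Of 32841 windows of this length, 45.8% held at least 1 such match, so a match by itself is common. CCAAT matched 1 time, in the Resp18 window, and stood in 33.9% of all windows. TATAAA, the core of a TATA box, matched in none of the 3 windows and in 12.4% of all. The windows held 14, 4 and 11 CG pairs for Fezf2, Resp18 and Maoa, against a median of 6. These matches describe the letters only.

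Fezf2 was bright in 5 of the 6 groups and low in perinate GFP- cells. It read 4034, 3594 and 3371 on the adult KO GFP+ arrays, 3632, 4269 and 4312 on the adult WT GFP+ arrays, and 2974, 3272 and 2971 on the adult WT GFP- arrays. Among perinates it read 2609, 3880 and 3786 in KO GFP+ cells, 2270, 2605 and 3417 in WT GFP+ cells, and 470.7 and 464.1 in WT GFP- cells. The other 15 arrays read 2270 or more, and neighbouring groups overlapped in the order of levels down to perinate WT GFP+ cells. Perinate WT GFP- cells lay apart, though still above the 40th percentile of their arrays.

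**Figure D1:**
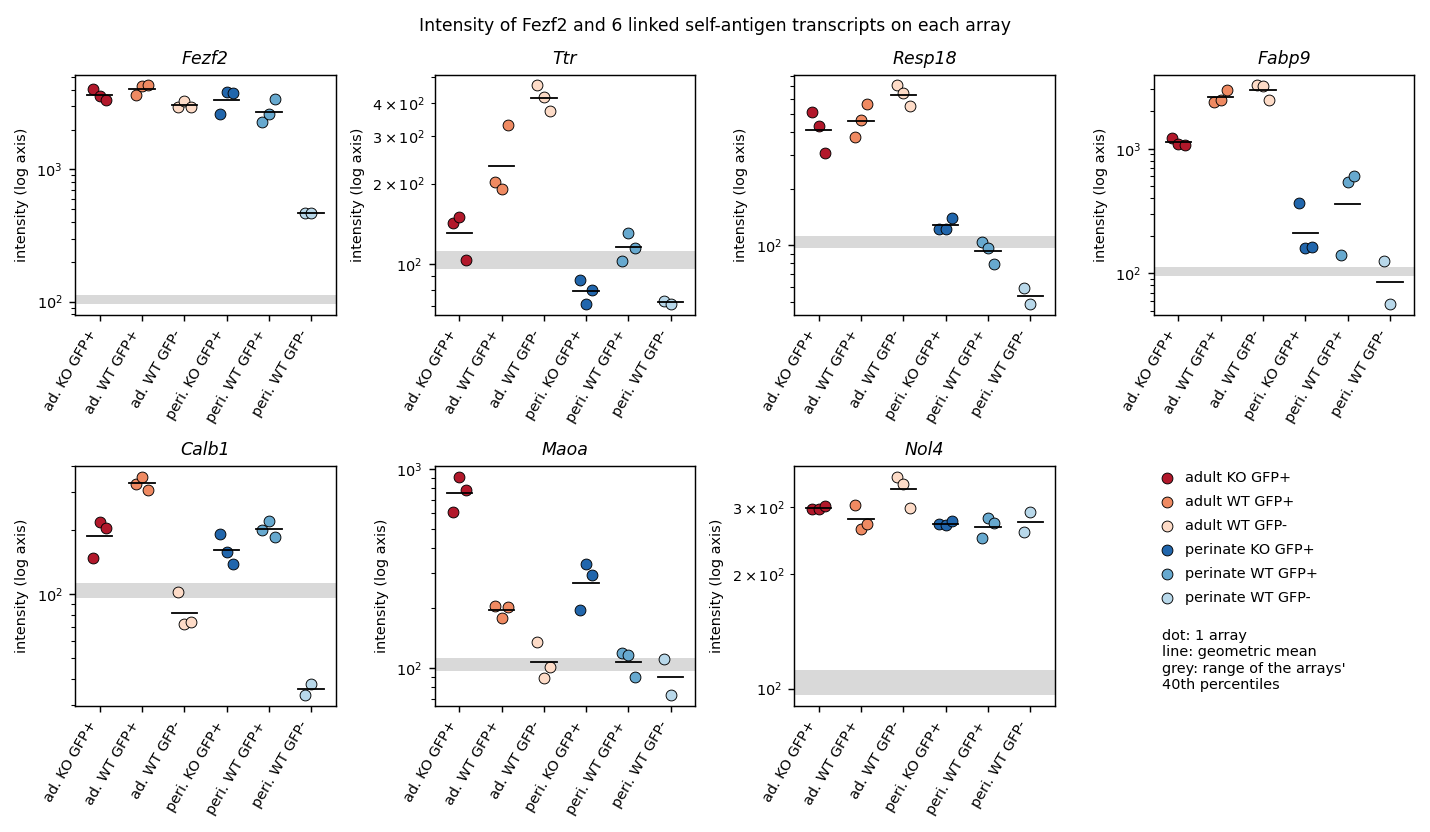
Intensity (log axis) of each of the 7 genes on the 17 arrays, with 1 dot per array, a line at the geometric mean of a group and a grey band for the arrays' 40th percentiles (96.16 to 112.1). Fezf2 is at 464.1 and 470.7 in perinate WT GFP- cells and at 2270 or more elsewhere, while Resp18 and Fabp9 separate adults from perinates and Maoa is highest in adult KO cells.

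GFP+ and GFP- cells were compared to see how the 7 transcripts follow the cells that use the Aire promoter. In adults Fezf2 was 1.32-fold higher in GFP+ than in GFP- cells (log2 difference 0.40 ± 0.16 (SE), limma adjusted p = 0.0456), and in perinates it was 5.83-fold higher (2.54 ± 0.17, adjusted p = 8.51e-09). With the replicate number as a block, which pairs the 2 adult sorts, the adult adjusted p was 0.0528. The adult call also ended without any 1 of the 3 adult GFP- arrays, adult GFP+ array 7 or 8, adult KO array 2, perinate GFP+ array 6 or either perinate GFP- array (adjusted p = 0.0504 to 0.127), and with quantile normalization (0.203). The GFP difference was itself larger in perinates than in adults by 2.14 ± 0.23 on the log2 scale (adjusted p = 1.41e-05). In bulk RNA of sorted cells, fewer Fezf2-expressing cells and less Fezf2 RNA per cell cannot be told apart.

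For Ttr, Resp18 and Fabp9, too, the difference between the sorts changed with age. Ttr read 202.1, 190.4 and 331 in adult WT GFP+ cells, against 465.1, 422.6 and 371.9 in adult WT GFP- cells. In perinates it read 103.2, 130.5 and 115 in WT GFP+ cells, against 72.96 and 71.28 in WT GFP- cells. Neither pair of groups overlapped, with GFP+ cells below GFP- cells in adults and above them in perinates. The log2 difference was -0.84 ± 0.18 in adults (adjusted p = 0.00141) and 0.68 ± 0.21 in perinates (adjusted p = 0.0129), and the change between ages was 1.52 ± 0.28 (adjusted p = 0.000919). Both perinate GFP- values lay below the 40th percentile, and the perinate GFP+ values lay near it, with 2 of 3 arrays above. The perinate difference is thus between values near background. Leaving out either perinate GFP- array ended the perinate call (adjusted p = 0.052 without array 1 and 0.0636 without array 2) but not the call on the change between ages.

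Resp18 behaved likewise at a different level. It read 377.3, 461.2 and 561.8 in adult WT GFP+ cells, against 708.2, 643.7 and 553.2 in adult WT GFP- cells. In perinates the values were 104.3, 96.14 and 78.82 in WT GFP+ cells, against 58.81 and 48.63 in WT GFP- cells. The adult groups overlapped on 1 array each and the perinate groups did not. The adult difference of -0.46 ± 0.18 passed narrowly (adjusted p = 0.0471), and with the replicate number as a block its adjusted p was 0.0592. That call also ended without any 1 of 9 arrays (adult GFP- 6 or 7, adult GFP+ 6 or 7, adult KO 2, perinate GFP+ 6 or any perinate KO array), with adjusted p = 0.0531 to 0.205. The perinate difference was 0.79 ± 0.20 (adjusted p = 0.00398), and without perinate GFP- array 2 its adjusted p was 0.0544. All 5 of these perinate arrays lay below their 40th percentile, so both sides of the perinate difference are at background level. The change between ages was 1.25 ± 0.27 (adjusted p = 0.00336).

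Fabp9 did not differ detectably between the adult sorts and was low in perinate GFP- cells. It read 2384, 2465 and 2977 in adult WT GFP+ cells, against 3224, 3221 and 2448 in adult WT GFP- cells, and the groups overlapped. Perinate WT GFP+ cells gave 140, 542.6 and 608.3, against 126.3 and 56.95 in perinate WT GFP- cells, with 1 GFP+ array close to the upper GFP- array. The adult difference was -0.18 ± 0.43 (95% interval -1.1 to 0.74, adjusted p = 0.759) and the perinate difference 2.08 ± 0.49 (adjusted p = 0.00224, but 0.0563 without perinate GFP- array 2). The change between ages, 2.26 ± 0.65 (adjusted p = 0.021), rested on single arrays: its adjusted p was 0.124 without perinate GFP- array 2 and 0.0539 without perinate GFP+ array 7.

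Calb1 followed the reporter at both ages. It read 330.4, 355.7 and 309.6 in adult WT GFP+ cells, against 102.2, 71.89 and 74.07 in adult WT GFP- cells. In perinates it read 200.3, 220.2 and 186.2 in WT GFP+ cells, against 33.42 and 37.79 in WT GFP- cells. Every GFP+ array exceeded every GFP- array of its age, and all 5 GFP- arrays were below their 40th percentile. The log2 difference was 2.02 ± 0.16 in adults (adjusted p = 7.7e-08) and 2.51 ± 0.18 in perinates (adjusted p = 1.43e-08), and the change between ages did not pass (0.48 ± 0.24, 95% interval -0.03 to 1, adjusted p = 0.18).

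Maoa was 1.83-fold higher in GFP+ than in GFP- adult cells, at 203.9, 178.2 and 202.4 against 134, 88.9 and 100.8 (log2 difference 0.87 ± 0.21, adjusted p = 0.00325). In perinates it read 118.7, 116 and 89.86 in GFP+ cells, against 110.8 and 72.79 in GFP- cells. The adult groups were apart and the perinate groups overlapped (0.26 ± 0.24, 95% interval -0.25 to 0.76, adjusted p = 0.41). Of the 3 adult GFP- arrays 1 was above its 40th percentile, and the perinate GFP+ arrays lay near theirs. Folds of Maoa against either group are thus against values near background. Nol4 was slightly lower in GFP+ than in GFP- adult cells (-0.26 ± 0.10, adjusted p = 0.0368), a call that ended without adult GFP- array 6 (0.135) or 7 (0.106), adult GFP+ array 7 (0.129) or 8 (0.103) or both of perinate KO arrays 2 and 3 (0.057), and its perinate difference was -0.04 ± 0.11.

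Of the 7 genes, 6 passed between GFP+ and GFP- cells in adults, 3 higher and 3 lower in GFP+ cells, where 44.9% of all tested genes passed, 24.7% higher and 20.1% lower. That fit did not pair the adult sorts, and with the replicate number as a block 4 passed, without Fezf2 and Resp18. In perinates 5 passed, all higher in GFP+ cells, where 43.5% of all genes passed, 23% higher and 20.5% lower. Groups did not overlap for 4 of the 7 genes in adults and 5 in perinates, against 56.1% and 56.5% of all genes, so the adult share is near the background. The change of the GFP difference between ages passed for 4 genes, all more positive in perinates, against 20% of all genes, 10.7% more positive and 9.28% more negative. The median log2 difference of the 6 antigens was -0.22 in adults and 0.74 in perinates, against medians over all tested genes of 0.02 and 0.

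**Figure D2:**
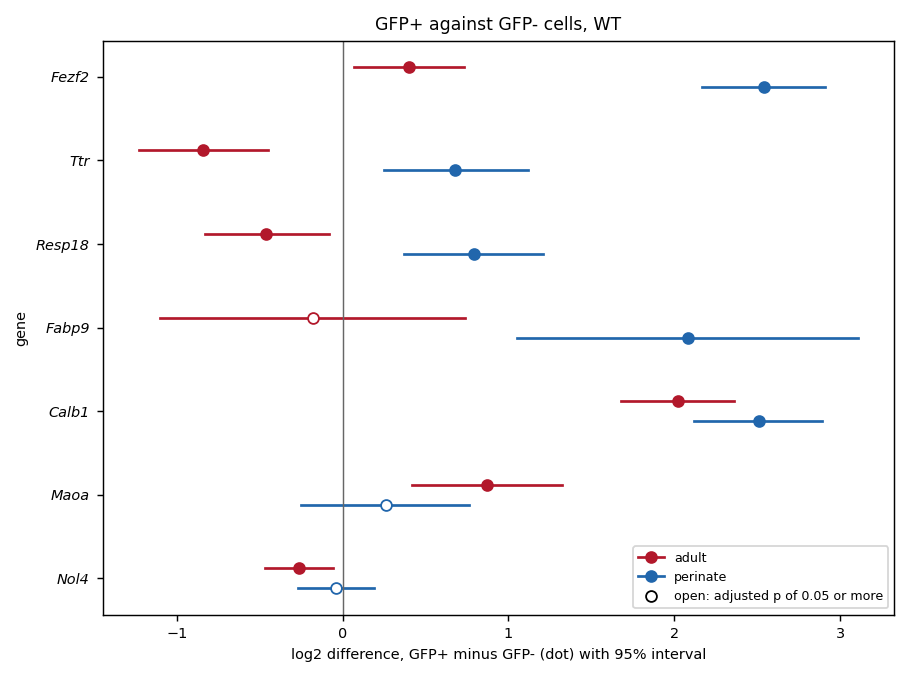
Log2 difference, GFP+ minus GFP- WT cells (dot), with its 95% interval for each gene in adults (red) and perinates (blue), and open dots where the adjusted p was 0.05 or more. The fit shown does not pair the adult sorts. Fezf2 is at 0.40 in adults and 2.54 in perinates, Ttr at -0.84 and 0.68, Resp18 at -0.46 and 0.79, and Calb1 at 2.02 and 2.51.

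The GFP- cells of the 2 ages also differed in markers of other cell types. All 6 tuft cell markers were lower in GFP+ than in GFP- adult cells, where they summed to 952.8 to 1160 in GFP+ cells against 5452 to 8037 in GFP- cells. In perinates 5 of 6 were lower, with sums of 834.8 to 986.7 in GFP+ cells against 1429 to 2316 in GFP- cells. Of all genes 20.1% were lower in GFP+ cells in adults and 20.5% in perinates. Of 6 markers of cortical thymic epithelium, 4 were lower and 2 higher in GFP+ than in GFP- perinate cells, with sums of 6954 to 11450 in GFP+ cells against 14200 to 14370 in GFP- cells. Psmb11, the thymoproteasome subunit of cortical cells, was 3.12-fold lower in GFP+ than in GFP- perinate cells, and Prss16, their serine protease, 4.91-fold lower. Markers of dendritic cells and macrophages summed to 3800 to 4469 in GFP+ against 633.8 to 648.4 in GFP- perinate cells, and to 6165 to 6327 against 4589 to 5268 in adults. In that list of 8 measured genes Itgax was above the 40th percentile on no array. Lyz2, the macrophage lysozyme gene, named after its values were seen, supplied most of the perinate difference (16.7-fold). The part of these cells in the differences of the 7 genes was not tested.

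Adults and perinates were compared within each kind of cell to see how the transcripts differ with age, and every difference that passed was higher in adults. The 3 comparisons share arrays with those by GFP and genotype. Between adult and perinate WT GFP+ cells 6 of 7 genes passed, all higher in adults, where 22.2% of all genes passed, 13.6% higher in adults and 8.52% higher in perinates. In WT GFP- cells 6 passed, all higher in adults (Calb1 between values at background level), where 46.4% of all genes passed, 24.2% higher in adults and 22.2% higher in perinates. In KO GFP+ cells 4 passed, all higher in adults, where 26% passed, 12.7% higher in adults and 13.4% higher in perinates. Among those 4, the calls of Ttr and Fabp9 rested on perinate KO arrays 2 and 3. Without them the Fabp9 difference, perinate minus adult, was -1.62, against -2.41 with all arrays. Adult and perinate arrays did not overlap for 6 of the 7 genes in WT GFP+ cells (39.7% of all genes), 6 in WT GFP- cells (60.5%) and 5 in KO cells (45.7%). The median log2 difference of the 6 antigens, perinate minus adult, was -0.94 in WT GFP+, -1.87 in WT GFP- and -1.11 in KO GFP+ cells, against medians over all genes of 0, 0.02 and -0.01.

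Fabp9 had the widest spread between ages. Besides the WT values above, it read 1218, 1092 and 1070 in adult KO cells, against 364.7, 159 and 164.3 in perinate KO cells. Adult and perinate arrays did not overlap in any of the 3 kinds of cell. It was 7.23-fold higher in adult than in perinate WT GFP+ cells (log2 difference, perinate minus adult, -2.85 ± 0.43, adjusted p = 0.000275), 34.7-fold higher in WT GFP- cells (adjusted p = 3.23e-07) and 5.31-fold higher in KO cells (adjusted p = 0.000825). Without perinate KO arrays 2 and 3 the KO value was -1.62 (adjusted p = 0.0819). Because 1 perinate GFP- array was below the 40th percentile, the value in GFP- cells depends on that floor.

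Resp18 showed the same order. In KO cells it read 511.3, 430.4 and 309.4 in adults, against 121.5, 121.1 and 140.1 in perinates, again without overlap. It was 4.98-fold higher in adult than in perinate WT GFP+ cells (perinate minus adult, -2.32 ± 0.18, adjusted p = 7.38e-07), 11.8-fold higher in WT GFP- cells (adjusted p = 9.95e-10) and 3.21-fold higher in KO cells (adjusted p = 8.59e-06). No perinate WT array reached its 40th percentile, so both WT folds are against background and are understated, while all 3 perinate KO arrays were above it. The KO call remained without perinate KO arrays 2 and 3, as its adjusted p did not exceed 0.00077 under any alternative tried.

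Ttr was 2.02-fold higher in adult than in perinate WT GFP+ cells (adjusted p = 0.00107), 5.8-fold higher in WT GFP- cells (adjusted p = 6.34e-08) and 1.65-fold higher in KO cells (adjusted p = 0.00872). Without perinate KO arrays 2 and 3 its KO difference was -0.58 and did not pass (adjusted p = 0.177). Calb1 was 1.64-fold higher in adult WT GFP+ cells (adjusted p = 0.00505) and 2.3-fold higher in adult WT GFP- cells (adjusted p = 4.33e-05), where all arrays of both ages were below the 40th percentile. In KO cells its difference was -0.22 ± 0.16 (95% interval -0.56 to 0.13, adjusted p = 0.358), and 0.04 without perinate KO arrays 2 and 3. Maoa was 1.81-fold higher in adult than in perinate WT GFP+ cells (adjusted p = 0.00896) and 2.84-fold higher in adult than in perinate KO cells (adjusted p = 0.00011, and 0.000432 without perinate KO arrays 2 and 3). In WT GFP- cells its difference was -0.24 ± 0.24 (adjusted p = 0.427), and its perinate WT values of both sorts lay near or below the 40th percentile. Nol4 was 1.22-fold higher in adult than in perinate WT GFP- cells (adjusted p = 0.0408), a call that 10 of 28 alternatives ended, among them leaving out adult GFP- array 6 or 7, perinate GFP- array 1 or perinate KO array 2 or 3.

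Fezf2 itself was 6.57-fold higher in adult than in perinate WT GFP- cells (perinate minus adult, -2.72 ± 0.17, adjusted p = 5.25e-09). In WT GFP+ cells it was 1.49-fold higher in adults (-0.58 ± 0.16, adjusted p = 0.0147), a call that ended without adult array 7 (adjusted p = 0.0553), adult array 8 (0.0568) or perinate array 5 (0.0749). In KO cells the difference was -0.12 ± 0.16 (95% interval -0.45 to 0.21, adjusted p = 0.63), and -0.49 without perinate KO arrays 2 and 3 (adjusted p = 0.112).

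**Figure D3:**
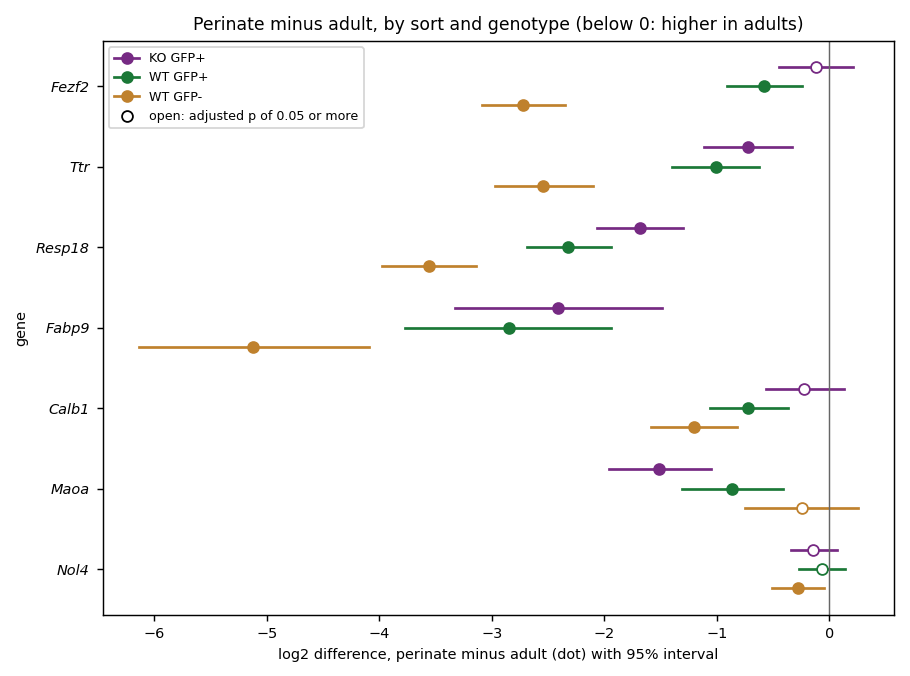
Log2 difference, perinate minus adult (dot), with its 95% interval for each gene in KO GFP+ (purple), WT GFP+ (green) and WT GFP- cells (brown), with open dots where the adjusted p was 0.05 or more. Values below 0 are higher in adults, and the Fabp9 values reach -5.12 and those of Resp18 -3.56 in WT GFP- cells.

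GFP+ cells of KO and WT mice were compared to see which transcripts depend on Aire. With all arrays, Maoa was higher and Ttr lower in KO cells at both ages, Calb1 was lower in adult KO cells, and Fezf2, Resp18 and Nol4 did not pass at either age. In adults 3 of 7 genes passed, 1 higher and 2 lower in KO cells, where 19.9% of all tested genes passed, 9.06% higher and 10.8% lower. In perinates 2 passed, 1 higher and 1 lower, where 26.5% of all genes passed, 13.5% higher and 13% lower, so the perinate share is near the background. The perinate calls of Maoa and Ttr rested on perinate KO arrays 2 and 3, and without them the Maoa difference was 0.86. The median log2 difference of the 6 antigens was -0.50 in adults and -0.15 in perinates, against 0.06 and 0.09 over all genes. These comparisons share the WT GFP+ arrays with those by GFP and age. The test of the KO effect between ages called none of the 7 genes (limma, 3 with an unadjusted p under 0.05), where it called 1.21% of all genes, and with array weights it called 1, Fezf2 (adjusted p = 0.0487).

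Fezf2 had a log2 difference, KO minus WT, of -0.15 ± 0.16 in adults (95% interval -0.48 to 0.18, adjusted p = 0.546) and 0.31 ± 0.16 in perinates (-0.02 to 0.64, adjusted p = 0.154). The perinate groups overlapped. The perinate value depended on single arrays, since it passed without perinate WT array 7 (adjusted p = 0.038) or perinate KO array 1 (adjusted p = 0.0227) and was -0.06 without perinate KO arrays 2 and 3.

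Maoa, with the probe sets used, was the only one of the 7 genes that passed as higher in KO cells. It read 604.1, 913 and 783 in adult KO GFP+ cells, against 203.9, 178.2 and 202.4 in adult WT GFP+ cells. In perinates it read 194.9, 331.9 and 292 in KO cells, against 118.7, 116 and 89.86 in WT cells. At both ages every KO array exceeded every WT array. The perinate WT arrays lay near their 40th percentile, so the perinate difference is against values near background. The log2 difference was 1.96 ± 0.21 in adults (adjusted p = 2.64e-06) and 1.31 ± 0.21 in perinates (adjusted p = 0.000247). Without perinate KO arrays 2 and 3, the pair with low Uty and high Xist, the perinate value was 0.86 and did not pass (adjusted p = 0.0691), and Maoa is X-linked. The adult KO arrays had Uty at 337.1, 348.1 and 235.9, against 238, 222.7 and 366.2 in adult WT GFP+ cells, and neither Uty nor Xist passed between the adult groups (adjusted p = 0.888 and 0.857).

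Ttr read 143, 149.7 and 103.5 in adult KO cells, against 202.1, 190.4 and 331 in adult WT GFP+ cells, and 87.22, 71.11 and 79.85 in perinate KO cells, against 103.2, 130.5 and 115 in perinate WT GFP+ cells. The groups did not overlap at either age, and the 3 perinate KO arrays were below their 40th percentile. It fell by 0.84 ± 0.18 on the log2 scale in adults (adjusted p = 0.00322) and by 0.55 ± 0.18 in perinates (adjusted p = 0.0371). The perinate call ended without perinate WT array 6 (adjusted p = 0.109) or 7 (0.0732) and without perinate KO array 2 (0.133) or 3 (0.0838), and with both KO arrays out it was 0.406.

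Calb1 read 147.9, 217.9 and 203.5 in adult KO cells, against 330.4, 355.7 and 309.6 in adult WT GFP+ cells, and fell by 0.82 ± 0.16 (adjusted p = 0.00134). In perinates it read 192.2, 157.9 and 138.3 in KO cells, against 200.3, 220.2 and 186.2 in WT cells. The adult groups were apart and the perinate groups overlapped (-0.32 ± 0.16, 95% interval -0.67 to 0.02, adjusted p = 0.148). Without perinate KO arrays 2 and 3 the perinate value was -0.07.

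Fabp9 was lower on every adult KO array, at 1218, 1092 and 1070, than on any adult WT GFP+ array, at 2384, 2465 and 2977. Over all arrays the difference of -1.21 ± 0.43 did not pass (adjusted p = 0.0618). The shared spread included perinate WT GFP+ array 5, at 140, without which the adjusted p was 0.00652, and with only the 2 groups compared it was 4.58e-05. In perinates the difference was -0.76 ± 0.43 (adjusted p = 0.205), and without that array it was -1.44 (adjusted p = 0.00525), but 0.02 without perinate KO arrays 2 and 3. Resp18 differed by -0.17 ± 0.18 in adults (adjusted p = 0.539) and by 0.46 ± 0.18 in perinates (adjusted p = 0.0649), where every KO array, at 121.1 to 140.1, exceeded every WT array, at 78.82 to 104.3. That perinate value was 0.39 without perinate KO arrays 2 and 3 (adjusted p = 0.409), and Resp18 passed when arrays were centred on their median (adjusted p = 0.0285). Groups did not overlap for 4 of the 7 genes in adults and 3 in perinates, against 40.3% and 43.1% of all genes.

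**Figure D4:**
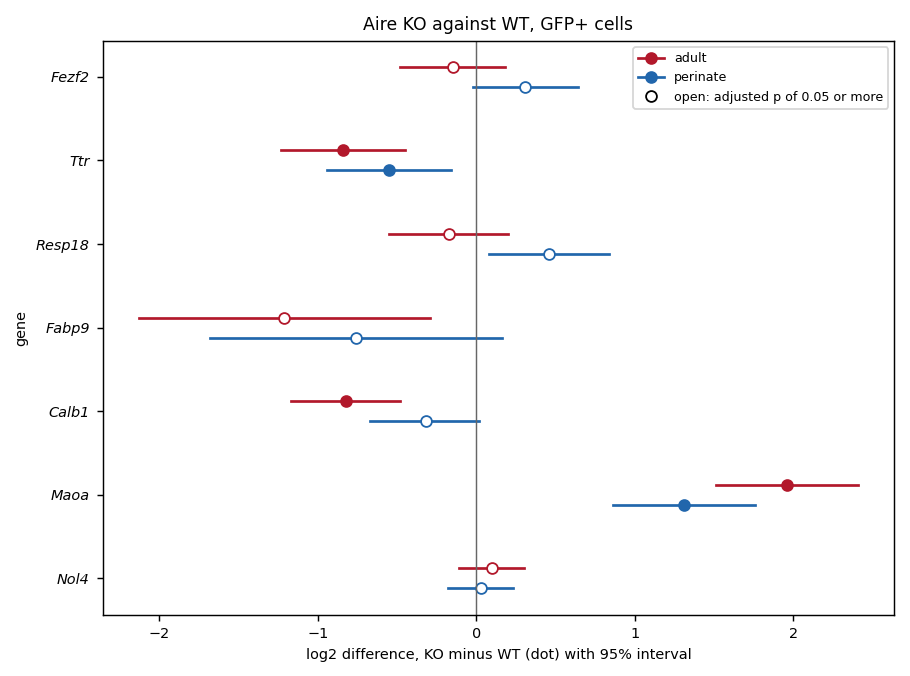
Log2 difference, KO minus WT GFP+ cells (dot), with its 95% interval for each gene in adults (red) and perinates (blue), with open dots where the adjusted p was 0.05 or more. Maoa lies at 1.96 and 1.31, Ttr at -0.84 and -0.55, and the intervals of Fezf2 include 0 at both ages.

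Some markers of other cells moved with the genotype. Of 7 tested markers of dendritic cells and macrophages, 6 were lower in adult and 4 in perinate KO cells, where 10.8% and 13% of all genes were lower. Their sums were 4718 to 4890 in adult KO against 6165 to 6327 in adult WT GFP+ cells, and 3354 to 3533 against 3800 to 4469 in perinates. Lyz2 supplied most of each sum, with means of 4124 against 5193 in adults and 2897 against 3314 in perinates. Ptprc, the CD45 gene, named after its values were seen, had means of 191.2 against 151 and 129.8 against 137.1. Some of these markers, such as Adgre1, were bright enough to be tested only through WT GFP+ arrays, which favoured a fall. Of 6 fibroblast markers 2 passed as higher and 1 as lower in adult KO cells, with sums of 4247 to 4727 against 2569 to 2775 in adult WT GFP+ cells. In perinates 2 were higher and 2 lower, with sums of 5000 to 5329 in KO against 3935 to 4956 in WT GFP+ cells. Dcn supplied most of each fibroblast sum, with means of 3394 in KO against 1579 in WT GFP+ adult cells and 4292 against 3265 in perinates. Col1a1, a collagen gene, went the other way, with means of 215.3 against 285.1 and 173.8 against 397. The perinate call of Dcn, at a log2 difference of 0.40, rested on all 3 KO arrays, and the difference was 0.37 without perinate KO arrays 2 and 3. Of 6 measured thymocyte genes, Cd3e and Cd8a were above the 40th percentile on every array, Ptcra and Dntt on none, and the sums were 750.6 to 1243 in adult KO against 794.5 to 1429 in adult WT GFP+ cells, and 699.4 to 923.3 against 820.1 to 978.5 in perinates. Of these 4 were tested, and Cd4 was lower in perinate KO cells (-0.74, adjusted p = 0.00789). Of 3 measured B cell genes Cd79a and Ms4a1 were above the 40th percentile on no array, and Pax5 was higher in perinate KO cells (0.30, adjusted p = 0.0331, but 0.441 without arrays 2 and 3). Without those arrays 3 dendritic cell and macrophage markers were lower, and 1 fibroblast marker was higher and 1 lower. The part of these cells in the KO differences was not tested.

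Transcripts that are commonly cited as Aire-induced were set beside the 7 genes. All 10 that were tested fell in KO cells at both ages, where 10.8% and 13% of all genes fell. Their median log2 difference was -3.09 in adults and -2.64 in perinates. Some of the 10, such as Cyp1a2, were bright enough to be tested only through WT GFP+ arrays, which favoured a fall in this count. Crabp1, a retinoic acid-binding protein gene, fell 22-fold in adult and 20.2-fold in perinate KO cells, Cyp1a2, a liver cytochrome P450, 19.5-fold and 8.92-fold, and Csn1s2a, a casein gene, 16.6-fold and 14.3-fold. All 10 still fell without perinate KO arrays 2 and 3, with a median of -2.71. Of the 6 antigens linked to Fezf2, Ttr (1.79-fold) and Calb1 (1.77-fold) fell and Maoa rose (3.89-fold) in adults, and Maoa rose (2.48-fold) in perinates, where Ttr fell 1.46-fold with all arrays (adjusted p = 0.0371) and did not pass without arrays 2 and 3 (0.406). Fabp9 differed by 2.31-fold in adults, with groups that did not overlap, and missed the threshold in the fit to all arrays.

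The 3 probe sets of Nol4 disagreed. The one used read 263.2 to 303.6 in adult WT GFP+ cells and 248.3 to 280.9 in perinate WT GFP+ cells and gave no call between them (perinate minus adult, -0.06 ± 0.10). The others read 347.5 to 446.4 and 277 to 333.7 in adult WT GFP+ cells, against 164.1 to 196.5 and 154.1 to 204 in perinate WT GFP+ cells. Both were thus higher in adults, with log2 differences, perinate minus adult, of -1.1 (adjusted p over all probe sets = 0.000219) and -0.81 (0.000611). They were also higher in perinate KO than in perinate WT GFP+ cells, by 0.85 (adjusted p = 0.00107) and 0.73 (0.000881), where the one used differed by 0.03. Without perinate KO arrays 2 and 3 these were 0.52 (adjusted p = 0.145) and 0.69 (0.0415). Probe set 10457820 alone was higher in GFP+ than in GFP- cells, by 0.90 at both ages. Which exons the probe sets cover is not given in the sources used here.

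**Figure D5:**
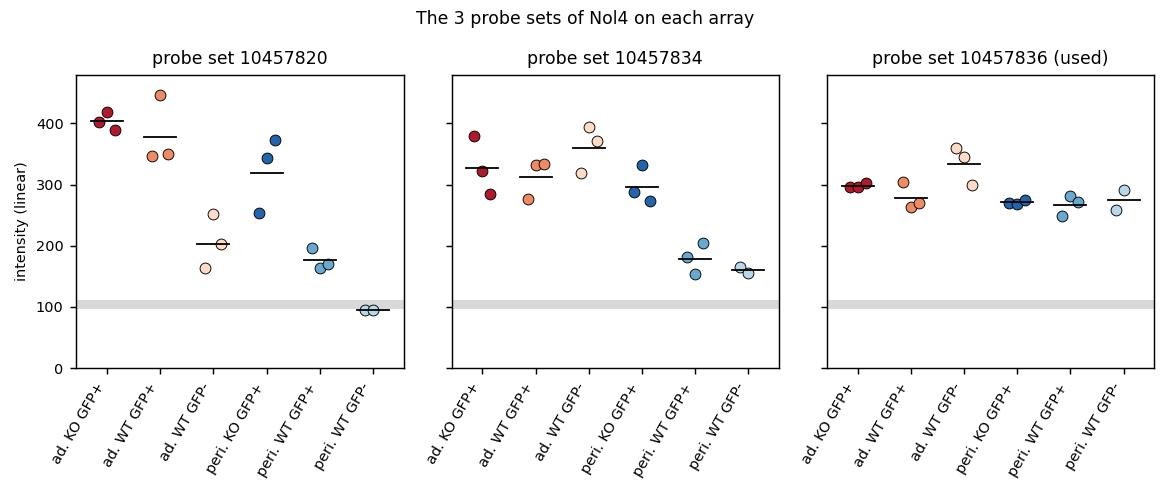
Linear intensity of the 3 Nol4 probe sets on the 17 arrays, with 1 dot per array, a line at the geometric mean of a group and a grey band for the arrays' 40th percentiles. The set used, on the right, stays between 248.3 and 360.3, while the other 2 are lower in perinate WT than in perinate KO GFP+ cells.

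Genes upstream of Fezf2 and its partners were described from lists. In the lymphotoxin receptor route, which signals through the kinase encoded by Map3k14 to the NF-kB subunits encoded by Nfkb2 and Relb, 5 genes were measured and no call was made between adult KO and WT cells, where the log2 differences were -0.11 (Ltbr) to 0.13 (Map3k14). Map3k14 was higher in perinate KO cells by 0.40 on the log2 scale (adjusted p = 0.0109). Between the sorts, Nfkb2 was higher in GFP+ than in GFP- cells by 0.67 in adults and 0.84 in perinates and Relb by 0.82 and 0.50, while Ltbr, the receptor, was lower by 0.72 and 0.96. Traf2, an adaptor that keeps the kinase low, was higher in adult than in perinate WT cells of both sorts. Of 4 tested corepressor partners, Tle1, a Groucho-type corepressor, was higher in perinate KO cells by 0.61 (adjusted p = 0.00438), and Chd4, a chromatin remodeller bound by Fezf2 in mice, differed by -0.08 and -0.07 in adult and perinate KO cells. Of 4 tested genes of the forebrain programme, Bcl11b, a transcription factor of deep-layer neurons and of T cells, was higher in perinate KO cells by 0.33 (adjusted p = 0.0455). None of these 3 calls remained without perinate KO arrays 2 and 3, with 0.34 for Map3k14 (adjusted p = 0.215), 0.67 for Tle1 (0.0604) and 0.08 for Bcl11b (0.793).

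Several relatives of the members, of the same gene families, were lower in KO cells. Of 16 tested relatives, 8 fell and 1 rose in adult KO cells, and 9 fell and 2 rose in perinate ones, where 10.8% and 13% of all genes fell, and their median log2 differences were -0.47 and -0.48, against 0.06 and 0.09 over all genes. Calb2, encoding calretinin, read 35.67 in adult KO against 727.7 in adult WT GFP+ cells (geometric means), a 20.4-fold fall, and fell 7.7-fold in perinates. Scgn, encoding secretagogin, fell 7.19-fold and 3.55-fold. The intestinal Fabp2 fell 4.46-fold and 2.1-fold and Fabp6 of the ileum 3.93-fold and 2.56-fold. All 4 genes were below the 40th percentile in KO cells, and Fabp2 (44.97 to 49.84) and Fabp6 (61.64 to 85.51) were so in perinate WT GFP+ cells as well, with Scgn near it (80.36 to 101.5), so their perinate folds are between values at background level and the other folds are against it. Calb2, Scgn, Fabp2 and Fabp6 reached the 2 arrays needed for testing only through WT GFP+ arrays, so the filter itself favoured a fall in the counts of relatives. With perinate KO arrays 2 and 3 left out, 8 relatives fell and 1 rose. The remaining relatives named here were chosen after their values were seen. S100g, another calcium-binding protein gene, rose 1.5-fold and 1.65-fold. Fabp4, of fat cells and macrophages, rose 1.83-fold in perinate KO cells and had a log2 difference of 0.42 in adults (adjusted p = 0.0931), and the perinate value was 0.46 without perinate KO arrays 2 and 3 (adjusted p = 0.195). Fezf1, the closest relative of Fezf2, fell by 0.56 in adult and 0.59 in perinate KO cells.

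Among genes of monoamine metabolism 5 of 8 tested fell in adult KO cells and none rose, while Maoa, of the same pathway, was higher. In perinate KO cells 5 fell and 1, the serotonin transporter Slc6a4, rose by 0.51 (adjusted p = 0.0464). The Slc6a4 call rested on perinate KO arrays 2 and 3, without which its difference was 0.33. The set of genes that fell also changed without them. Slc18a1 left it, at -0.82 against -0.66 with all arrays, and Tph1 entered it, at -1.2 against -0.51. These 2 genes were named after their values were seen. With all arrays the median log2 differences of the list were -0.90 in adults and -0.93 in perinates, against 0.06 and 0.09 over all genes. Of all genes 10.8% fell in adult and 13% in perinate KO cells. The vesicular transporter Slc18a2 fell 4.12-fold and 4-fold, the dopamine-synthesis enzyme Th 3.26-fold and 3.65-fold, the noradrenaline-synthesis enzyme Dbh 1.7-fold and 2.53-fold, and the dopamine transporter Slc6a3 2.19-fold and 2.29-fold. Maob, the neighbouring and related oxidase gene, was above the 40th percentile on no array. Hepatocyte plasma proteins, the organ context of Ttr, fell in 10 of 10 tested genes in adult KO cells and 9 of 10 in perinate ones, with medians of -1.81 and -1.17, and in 9 of 10 also without perinate KO arrays 2 and 3. Of these Fgg, a fibrinogen chain, fell 9.14-fold and 4.2-fold (2.74-fold without those arrays) and Alb, serum albumin, 7.58-fold and 3.9-fold, against the 1.79-fold and 1.46-fold of Ttr. Of the choroid plexus list 1 gene was tested, the potassium channel Kcnj13, which fell 1.97-fold and 1.9-fold and, like Ttr, was lower in GFP+ than in adult GFP- cells (4.67-fold). In the neuroendocrine granule list, the context of Resp18, Chga (chromogranin A) fell 2.19-fold and 3.96-fold and Insm1, a neuroendocrine transcription factor, rose 1.95-fold in perinate KO cells (1.45-fold without perinate KO arrays 2 and 3, adjusted p = 0.328), with 5 genes tested and a median of 0.12 in adults and 0.07 in perinates. In the male germ cell list, the context of Fabp9, 3 of 10 genes were tested, and Prm1, a protamine, fell 2.03-fold and 1.69-fold and Acrv1, an acrosomal protein, 2-fold in adults. Many of the KO values in these lists are below the 40th percentile, as for Alb, Fgg, Slc18a2, Kcnj13 and Acrv1, so their folds are against background. Some listed genes were bright enough to be tested only through WT GFP+ arrays. Examples are Slc18a2, Dbh, Acrv1 and the hepatocyte gene Rbp4 (named after its values were seen). The filter itself thus favoured a fall in KO cells in these counts.

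Genes with the pattern most like each member were found by Pearson's r of log2 intensity over the 17 arrays, which share groups, so that r reflects the group differences and carries no test. For Fezf2 these were Syt1 (r = 0.983), Serpinb9 (0.981), Strip2 (0.979), Serpinb6b (0.979) and Dapp1 (0.978). All 5 were higher in GFP+ than in GFP- perinate cells, by 1.51 to 2.77 on the log2 scale, which largely follows from their choice by likeness to Fezf2. Ttr was followed by Klk1b27 (r = 0.979), Prss30 (0.979) and Gdpd2 (0.975), Resp18 by Mgat5 (0.977), Plaat3 (0.969) and Anks4b (0.966), and Fabp9 by F11r (0.965), Gpa33 (0.96) and Aldh3b1 (0.956). Calb1 was followed by Klrg1 (0.946), Igsf21 (0.946) and Cnga2 (0.941), Maoa by Gk5 (0.966), Cnst (0.963) and Fam102b (0.96), and Nol4 by Pttg1 (0.847), Rpia (0.844) and Ypel2 (0.844). Among the members, Resp18 and Fabp9 were most alike (r = 0.91), then Ttr and Fabp9 (0.88) and Ttr and Resp18 (0.84). Fezf2 was closest to Calb1 (0.78) and reached 0.43 with Ttr.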

How the data were processed

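RNA of 17 sorted samples was measured on Affymetrix whole-transcript mouse gene arrays, 1 array per sample. The deposited values are linear probe set intensities that the authors obtained with RMA in Affymetrix Power Tools, per the submitters' processing notes, which give no versions and do not list the arrays processed as 1 set. All 24922 probe sets were used (unused columns, 0). Symbols came from the platform annotation, and all 7 members matched the RefSeq symbol of their Entrez number.

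Intensities were log2-transformed without a pseudocount. With limma 3.58.1 (R 4.3.3), a model with 1 mean per group was fitted to the 17 arrays for the 13842 genes above the 40th percentile of their array on at least 2 arrays. Moderated p-values, two-sided, were adjusted by the Benjamini-Hochberg method over these genes in each of 9 comparisons, and an adjusted p under 0.05 was called. Intervals are at 95%. The steps were tested on simulated data. The number of arrays, with 11 residual degrees of freedom, limits the precision.

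Members, gene lists and tests were chosen with earlier results of these data known. The genes named are the 7 members, the 5 (Fezf2) or 3 (others) tested genes most correlated with each, from each list up to 4 genes called between KO and WT with the largest log2 differences, any gene of a list of up to 7, Aire and G6pc2 as a check of the sort, and Xist and Uty beside Maoa; others are marked where they appear. Replicate numbers came from the labels. For adult GFP+ and GFP- arrays 6, 7 and 8, same-numbered arrays deviated together (r = 0.5, 0.44 and 0.19). The main fit did not pair them, and the replicate block was used as an alternative fit. Between ages the correlations were 0.03 to 0.19 and no pairing was assumed. Alternatives covered the filter, the normalization, a pseudocount of 32, array weights, the variance prior, the choice of probe sets, the groups in the fit, the replicate block, a 2-fold threshold and leaving out arrays.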

Additional observations from a re-analysis of the deposited data

Results flagged for a closer look

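The difference between GFP+ and GFP- cells changed between ages for 4 genes, each by a test of the change itself in limma (perinate minus adult, on the log2 scale). The change was 2.14 for Fezf2, whose GFP+ excess was 0.40 in adults and 2.54 in perinates. It was 1.52 for Ttr and 1.25 for Resp18, with differences of -0.84 and -0.46 in adults and 0.68 and 0.79 in perinates. Of these, the adult call of Resp18 was lost with the replicate block (adjusted p = 0.0592) and in 13 of 29 alternatives in all. The perinate call of Ttr was lost without GFP- array 1 or 2 and that of Resp18 without GFP- array 2, and Resp18 was below the 40th percentile on all 5 perinate WT arrays. Ttr was below it on both perinate GFP- arrays and near it on the perinate GFP+ arrays. For Fabp9 the change was 2.26, and this one lost its call without perinate GFP- array 2 or perinate GFP+ array 7. The perinate GFP- group had 2 arrays. Tuft cell markers summed to 5452 to 8037 in adult GFP- cells and to 1429 to 2316 in perinate GFP- cells, and cortical epithelial markers to 6640 to 8190 and 14200 to 14370, and the part of these cells in the changes was not tested.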

How the results depend on the processing

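Of 1785 single-gene values recomputed under an alternative, 1685 kept their direction and side of the threshold, 63 lost a call, 20 gained one and 17 reversed. The cause was not tested. With a 2-fold threshold the genes called numbered 1 of 3 for KO in adults, 1 of 2 for KO in perinates, 1 of 6 for GFP in adults, 3 of 5 for GFP in perinates and 3 of 6 for age in WT GFP+ cells. For KO in perinates the count was 6 with array weights, 1 with a pseudocount of 32, 0 without perinate KO arrays 2 and 3 (limma; 1 with an unadjusted p under 0.05) and 1 to 3 when 1 array at a time was left out. The KO effect between ages called 1 gene with array weights, and age in KO cells 2 without perinate KO arrays 2 and 3. Leaving out 1 array gave 3 to 6 calls for GFP in adults and 2 to 5 for GFP in perinates. With the replicate number as a block, GFP in adults called 4 genes, without Fezf2 (adjusted p = 0.0528) and Resp18 (0.0592), and the block changed no other call (6 for age in WT GFP+ and 4 in KO cells).

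Reversals concerned values that had not passed, except for Nol4 between adult GFP+ and GFP- cells. Without perinate KO arrays 2 and 3 the KO difference in perinates was -0.06 for Fezf2 and 0.02 for Fabp9, and the age difference of Calb1 in KO cells 0.04. That of Fezf2 was 0.02 with array weights and -0.22 to 0.07 when 1 array was left out. With the mean of its 3 probe sets Nol4 gave 0.45 for the KO effect between ages, 0.14 for GFP in adults (called at -0.26 with 1 set) and 0.34 for GFP in perinates. With quantile normalization Nol4 gave -0.06 for KO in perinates and 0.01 for age in WT GFP+ cells. Leaving out 1 array gave -0.34 to 0.03 for Resp18 in adult KO cells, -0.23 to 0.83 for the KO effect of Fabp9 between ages, and for Nol4 -0.03 to 0.06 for KO and -0.13 to 0.05 for GFP in perinates. For Maoa it gave -0.05 to 0.56 for GFP in perinates and -0.55 to 0.06 for age in WT GFP- cells. Groups of 2 or 3 arrays and levels near the 40th percentile, as for Ttr, Resp18, Calb1 and Maoa in perinate GFP- cells, limit what these comparisons can show. Leaving out perinate KO arrays 2 and 3 for the listed genes and the Nol4 probe sets was chosen after seeing the data.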

Other observations

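The genes next to each member along its chromosome in the RefSeq annotation were looked up by position, and 11 of 14 neighbours were tested. Those described at length here were chosen after their values were seen. Fabp4 and Pmp2, which flank Fabp9 and encode fatty acid-binding proteins, shared its age difference: in WT GFP- cells Fabp4 was at 1809 in adults against 192.4 in perinates (log2 difference, perinate minus adult, -3.23, limma adjusted p = 1.44e-09) and Pmp2 at 236.9 against 44.78 (-2.40, adjusted p = 1.45e-06). In KO cells Fabp4 rose in perinates (0.87 with all arrays, but 0.46 without perinate KO arrays 2 and 3) and Pmp2 did not pass at either age. Cadps, a secretory-vesicle gene next to Fezf2, was higher in GFP+ than in GFP- perinate cells by 1.35 (adjusted p = 0.000109) and higher in adult than in perinate WT GFP- cells (-2.08, adjusted p = 1.12e-06). Of the other tested neighbours, 3830406C13Rik, B4galt6 and Ptprn were likewise higher in adult than in perinate WT GFP- cells. Decr1 was lower there in adults (perinate minus adult, 0.78, limma adjusted p = 0.00184), and Dsg2, Dnpep, Tmem64 and Asxl3 did not pass. Of all genes 24.2% were higher in adult WT GFP- cells and 22.2% higher in perinate ones. Ptprn, a secretory-granule gene next to Resp18, fell in adult and perinate KO cells by 0.44 and 0.50, where Resp18 differed by -0.17 and 0.46. Probes of neighbouring members of 1 family can share sequence, which was not examined here.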
